A study of Mus musculus with 16 samples.

Results

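Glutathione S-transferases (GSTs) are the enzymes that join the tripeptide glutathione to reactive, electron-poor molecules, which makes drugs, carcinogens and the products of lipid peroxidation easier to remove from the cell. In liver they form a large share of the phase II detoxification enzymes, and several of them are textbook target genes of phenobarbital (PB), which activates the nuclear receptor CAR in hepatocytes. The 10 GST genes described here were taken by name, with every array probe whose RefSeq accession maps to them: the alpha class genes Gsta2, Gsta3 and Gsta4, the mu class genes Gstm1, Gstm2, Gstm3 and Gstm4, the pi class gene Gstp1, and the theta class genes Gstt1 and Gstt3. They were 10 of the 19096 named genes on the array and were covered by 13 of its 41174 probes, because Gsta3, Gstm1 and Gstp1 had 2 probes each. All 13 probes were well above background on all 16 arrays, so every member passed the filter on dim probes in every group.

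The samples were livers of male mice aged 57 weeks, measured on 16 Agilent 1-colour arrays, with 1 mouse per array. All mice had received 90 mg/kg of the liver carcinogen diethylnitrosamine (DEN) at 5 weeks of age, so no group lacked DEN. The 4 groups of 4 mice were WT DEN and WT DEN + PB (wild type, C57BL/6J) and KO DEN and KO DEN + PB (mice with a germline null mutation of Gadd45β, a stress-inducible gene that PB raises in liver). The PB groups drank water with 0.5 g/l PB from 7 weeks of age to the end, and the others drank plain water. The study's text gives a C57BL/6J background for both genotypes, while the null line's stock name gives a mixed one, so a part of the strain background in the WT and KO difference cannot be told apart from the null allele. By the study's methods the RNA came from parts of the liver without tumours. Nothing in the labels says more about how the mice were housed or assigned. The p-values set a difference against the spread between arrays of a group, with 1 mouse per array. That spread holds differences between mice, arrays and slides alike.

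The labels were checked on their target genes. The Gadd45b probe was well above background on 4 of 4 arrays of each WT group and on 0 of 4 arrays of each KO group, which gives a signal at least 23.6-fold higher in WT under DEN and at least 44.8-fold higher under DEN + PB. Cyp2b10, the cytochrome P450 that is the standard marker of CAR activation, rose by 6.69 ± 0.62 (log2, SE) with PB in WT and by 6.80 ± 0.62 in KO, with adjusted p = 1.42e-05 and 1.09e-05 (limma). The 75th percentile of the processed signal, on which each array was scaled, ran from 137 to 294, and the array with the lowest was KO DEN + PB replicate 3. Arrays of a group correlated at 0.974 to 0.992 over the tested probes, and no spot was saturated. Of the hepatocyte markers, 6 of 6 were above background on every array.

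The first question was what PB did to the GST genes in each genotype. In WT, 5 of the 10 genes rose with PB (Gsta2, Gsta4, Gstm2, Gstm4 and Gstt3) and none fell. In KO, 4 rose (Gsta2, Gstm2, Gstm4 and Gstt3) and none fell. A gene was called when its brightest probe changed at least 1.5-fold with a Benjamini-Hochberg adjusted p under 0.05 in limma, adjusted over all 24454 tested probes. By the same rule 0.654% of the 13301 tested genes were called higher in WT and 1.26% in KO. The 10 genes were chosen with earlier results of these data known, so these shares are a description and not a test. Of 13 other tested GST genes, 1 was called higher in each genotype. The median log2 change of the 10 genes was 0.61 (WT) and 0.73 (KO), against -0.02 and 0.01 over all tested genes. Gstm2 in both genotypes and Gstt3 in KO kept their calls under the 8 other settings tried and with each array left out. With the slide as a block the WT count was 1 (Gstm2), with adjusted p = 0.0504 to 0.0793 for the other called genes, and with normexp background correction it was 1 in WT and 2 in KO. In bulk tissue, fewer cells of a type and less RNA per cell cannot be told apart. Levels below are log2 of the processed signal minus the log2 75th percentile of that array, given in the order of replicates 1 to 4, and they are comparable between arrays but not between probes.

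**Figure D1:**
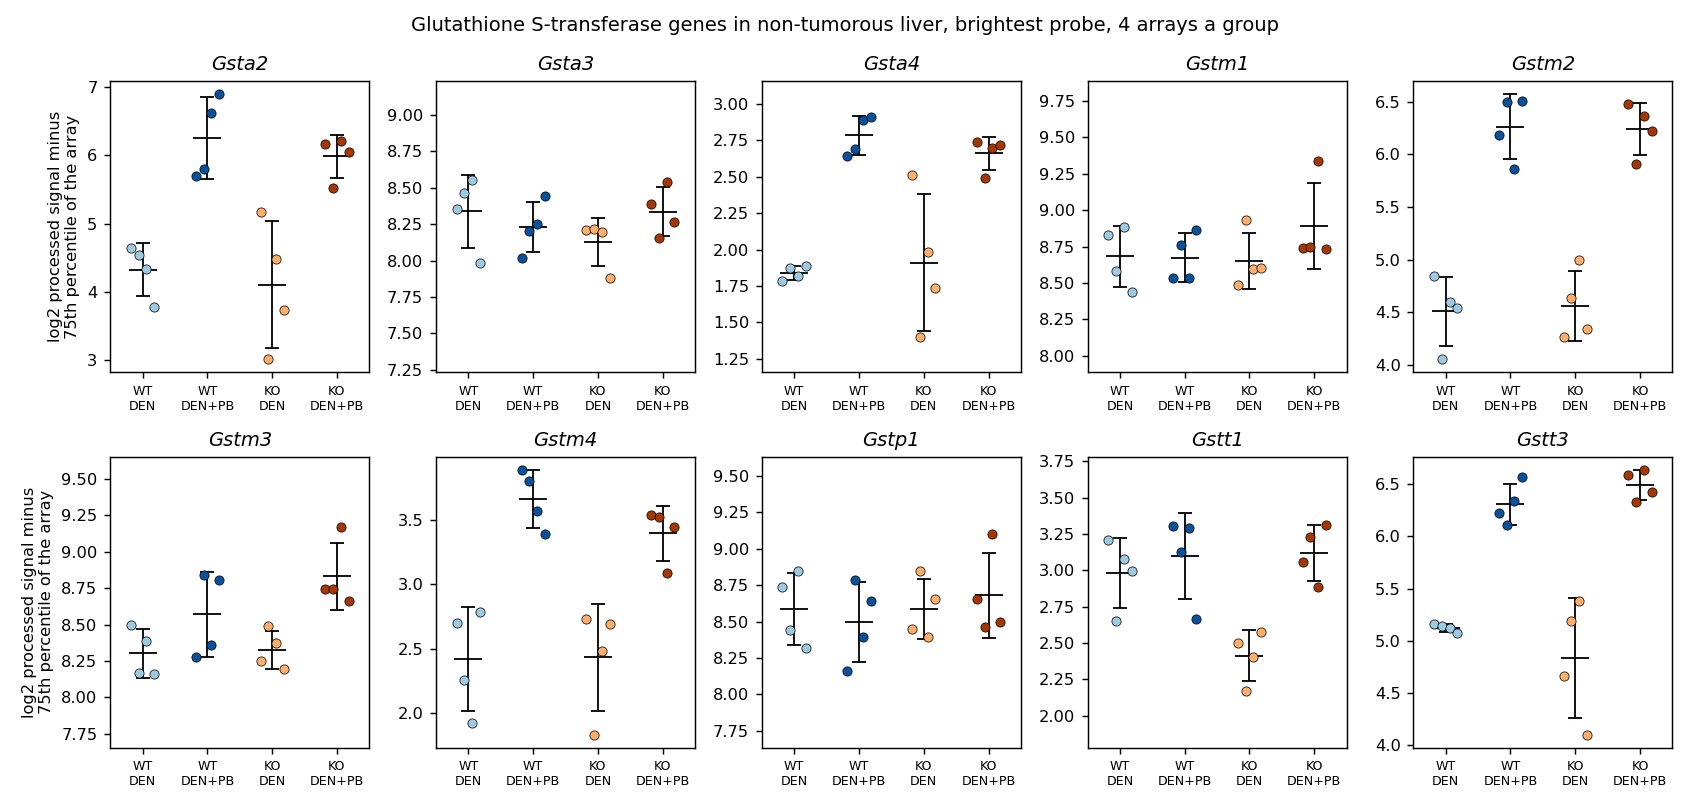
The log2 level of the brightest probe of each of the 10 genes (y axis, scaled to the array's 75th percentile, each panel with its own range) is plotted for the 4 groups (x axis), with a point per array and a bar for the mean and SD of 4 arrays. Gstm2 and Gstt3 separate by PB in both genotypes, KO DEN is widely spread for Gsta2 and Gsta4, and Gsta3, Gstm1 and Gstp1 overlap in all groups.

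The alpha class enzymes act on organic peroxides, reactive aldehydes and epoxides. Gsta2 read 4.64, 4.55, 4.33 and 3.78 in WT DEN and 5.69, 5.80, 6.62 and 6.90 in WT DEN + PB. It read 5.17, 3.02, 4.49 and 3.74 in KO DEN and 6.16, 5.52, 6.21 and 6.06 in KO DEN + PB. In both genotypes every PB array was above every array without PB, and the widest spread was among the KO DEN mice (SD 0.93). Gsta2 rose by 1.93 ± 0.38 in WT (3.80-fold, adjusted p = 0.0234) and by 1.88 ± 0.38 in KO (3.68-fold, adjusted p = 0.0168; limma). The exact permutation test of 4 against 4 arrays gave p = 0.0286 in each genotype, the smallest it can give. The WT call was lost when WT DEN replicate 2, 3 or 4 or WT DEN + PB replicate 3 or 4 was left out, with changes of 1.71 to 2.00 and adjusted p = 0.0513 to 0.0969. The KO call was lost without KO DEN replicate 4 (1.76, adjusted p = 0.0601) or KO DEN + PB replicate 3 (1.81, adjusted p = 0.0533). In each genotype the call was also lost in 5 of the 8 other settings (adjusted p up to 0.345 in WT and 0.169 in KO). Within the 3 slides that held both groups the Gsta2 change was 1.16 to 2.73 in WT and 0.35 to 3.03 in KO.

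Gsta4, whose enzyme removes 4-hydroxynonenal and related products of lipid peroxidation, read 1.79, 1.87, 1.82 and 1.89 in WT DEN and 2.64, 2.69, 2.89 and 2.91 in WT DEN + PB. The WT DEN arrays lay within an SD of 0.05, and Gsta4 rose by 0.94 ± 0.19 (1.92-fold, adjusted p = 0.0218). The WT call was lost on leaving out any WT array except WT DEN + PB replicate 1, with changes of 0.90 to 0.97 and adjusted p = 0.0536 to 0.0811, and in 4 of the 8 other settings. In KO DEN it read 2.52, 1.40, 1.99 and 1.74, and in KO DEN + PB 2.74, 2.49, 2.70 and 2.72. The KO groups overlapped, because KO DEN replicate 1 was above KO DEN + PB replicate 2, and the difference of 0.75 ± 0.19 was just outside the threshold (adjusted p = 0.0502; exact permutation p = 0.0571). Without KO DEN replicate 1 it was 0.96 with adjusted p = 0.00574. Within the 3 slides that held both groups the Gsta4 change was 0.83 to 1.03 in WT and -0.02 to 1.32 in KO. KO DEN replicate 1 was also the highest of its group for Gsta2, and KO DEN replicate 2 the lowest for both genes. The same holds for Cyp2b10, which read 0.23, -3.02, -1.37 and -0.98 in KO DEN; the part of this spread in the GST values was not tested.

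Gsta3, whose enzyme conjugates the aflatoxin epoxide in mice, was not called with either probe. Its brightest probe read 8.35, 8.46, 8.56 and 7.98 in WT DEN, 8.02, 8.21, 8.25 and 8.44 in WT DEN + PB, 8.21, 8.22, 8.20 and 7.88 in KO DEN and 8.39, 8.15, 8.54 and 8.26 in KO DEN + PB. All 4 groups overlapped. The PB difference was -0.11 ± 0.16 in WT (95% interval -0.44 to 0.22) and 0.21 ± 0.16 in KO (-0.12 to 0.54). The second probe gave -0.04 ± 0.18 in WT (95% interval -0.42 to 0.35) and 0.23 ± 0.18 in KO (-0.16 to 0.62). The intervals of the brightest probe leave out a 1.5-fold rise in both genotypes, while that of the second probe in KO does not.

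To show the regulatory sequence beside the values, the RefSeq promoters (250 bases before to 50 bases after the annotated start, GRCm38.p6) were searched on both strands for the antioxidant response element core TGACNNNGC, the nuclear receptor half-site AGGTCA, the TATA box TATAAA and the xenobiotic response element core GCGTG. These occur in 12.4%, 16.3%, 13.6% and 32.4% of 32851 promoters of this length. A promoter was matched for 9 of the 10 genes, 12 promoters in all; Gsta4 was not matched. The alpha class pair is printed because Gsta2 was called and Gsta3 was not. Capitals mark TGACNNNGC, which in these 12 promoters was found only in that of Gsta3, where it starts 121 bases before the annotated start. The Gsta2 window held GCGTG 7 bases before the start and the TATA box letters on the opposite strand 246 bases before it, which are left in lower case. Gsta2 lies at chr9:78347096-78347395 on the minus strand and Gsta3 at chr1:21240335-21240634 on the plus strand. The longest stretch that these windows share has 8 bases.
Gsta2: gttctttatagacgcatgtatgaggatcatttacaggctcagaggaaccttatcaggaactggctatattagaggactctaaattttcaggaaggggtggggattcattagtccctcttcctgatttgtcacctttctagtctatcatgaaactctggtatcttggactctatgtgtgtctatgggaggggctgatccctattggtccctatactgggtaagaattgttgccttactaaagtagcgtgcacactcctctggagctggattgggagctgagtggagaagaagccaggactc
Gsta3: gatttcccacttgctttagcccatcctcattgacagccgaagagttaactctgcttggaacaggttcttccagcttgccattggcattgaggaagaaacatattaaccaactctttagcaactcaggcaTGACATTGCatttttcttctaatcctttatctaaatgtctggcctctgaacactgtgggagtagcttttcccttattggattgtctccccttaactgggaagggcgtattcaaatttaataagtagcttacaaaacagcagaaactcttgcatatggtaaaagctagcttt

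The mu class genes lie close together on chromosome 3, and their enzymes conjugate epoxides and other electrophiles. Gstm2 read 4.84, 4.06, 4.60 and 4.54 in WT DEN and 6.19, 6.50, 5.86 and 6.51 in WT DEN + PB. It read 4.27, 4.64, 4.99 and 4.34 in KO DEN and 6.48, 5.91, 6.37 and 6.22 in KO DEN + PB. The lowest PB array was above the highest array without PB in each genotype. Gstm2 rose by 1.76 ± 0.21 in WT (3.38-fold, adjusted p = 0.000207) and by 1.68 ± 0.21 in KO (3.21-fold, adjusted p = 0.000305), the smallest adjusted p of the 10 genes' brightest probes in both genotypes. Within each of the 3 slides that held both groups the change was 1.59 to 2.21 in WT and 1.58 to 1.70 in KO.

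Gstm4, another mu class enzyme, was measured at 2.70, 2.26, 1.92 and 2.79 in WT DEN and at 3.89, 3.80, 3.57 and 3.39 in WT DEN + PB. In KO DEN it was 2.73, 1.84, 2.48 and 2.69, and in KO DEN + PB 3.53, 3.52, 3.08 and 3.44. The groups were apart in both genotypes. Gstm4 rose by 1.24 ± 0.22 in WT (2.37-fold, adjusted p = 0.0111) and by 0.96 ± 0.22 in KO (1.95-fold, adjusted p = 0.0377). The KO call was lost on leaving out any KO array except KO DEN replicate 1 and KO DEN + PB replicate 3, or WT DEN + PB replicate 2, with changes of 0.76 to 1.05 and adjusted p = 0.0522 to 0.117. The WT call was kept with each array left out. The KO call was lost in 7 of the 8 other settings (adjusted p up to 0.574) and the WT call in 3 (up to 0.647). Within slides the Gstm4 change was 0.87 to 1.96 in WT and 0.50 to 1.61 in KO.

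Gstm1, a major hepatic mu class enzyme, gave different answers with its 2 probes, which carry the same RefSeq accession. The brightest probe read 8.83, 8.58, 8.88 and 8.44 in WT DEN, 8.53, 8.76, 8.53 and 8.87 in WT DEN + PB, 8.49, 8.93, 8.59 and 8.60 in KO DEN and 8.74, 8.75, 9.34 and 8.74 in KO DEN + PB. With this probe the groups overlapped, and the differences were -0.01 ± 0.17 in WT and 0.24 ± 0.17 in KO (95% intervals -0.37 to 0.35 and -0.12 to 0.60). The second probe read 6.65, 6.03, 5.91 and 6.22 in WT DEN and 7.47, 7.65, 7.76 and 7.45 in WT DEN + PB. In KO DEN the second probe read 6.54, 6.16, 6.33 and 6.64, and in KO DEN + PB 7.49, 7.76, 7.82 and 7.76. Its groups were apart, and it rose by 1.38 ± 0.17 in WT (2.60-fold, adjusted p = 0.00025) and by 1.29 ± 0.17 in KO (2.45-fold, adjusted p = 0.000428). Counting a gene by any of its probes thus gave 6 of 10 genes called higher in WT and 5 in KO.

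The unscaled processed signal of the brightest Gstm1 probe stayed between 79334 and 109145 over the 16 arrays (1.38-fold), while that of the second probe ran from 11488 to 63858 (5.56-fold). The brightest probes of Gstp1 and Gstm3 were also narrow, at 1.42-fold and 1.66-fold, and no spot was marked as saturated, with signals of other probes reaching 332995. Over these very bright probes of Gsta3, Gstm1, Gstm3 and Gstp1, the mean scaled level was highest on KO DEN + PB replicate 3 (9.04), the array with the lowest 75th percentile, and was 8.25 and 8.38 on the arrays with the highest, WT DEN + PB replicates 1 and 3. Whether this narrow range has a part in the disagreement of the Gstm1 probes was not tested. Probe sequences were not compared with the other mu class transcripts here.

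**Figure D2:**
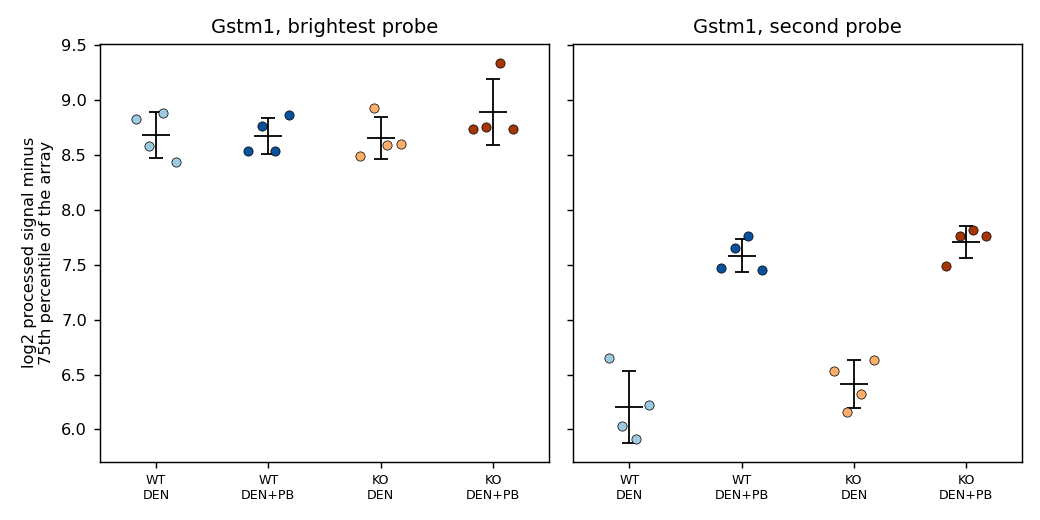
The log2 level (y axis, scaled to the array's 75th percentile, the same axis in both panels) of the brightest and the second probe of Gstm1 is plotted in the 4 groups (x axis), with a point per array and bars for the mean and SD of 4 arrays. The brightest probe lies between 8.44 and 9.34 in all groups, while the second probe lies between 5.91 and 6.65 without PB and between 7.45 and 7.82 with PB.

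Gstm3, a mu class gene close to Gstm2, read 8.49, 8.17, 8.39 and 8.16 in WT DEN and 8.28, 8.84, 8.36 and 8.80 in WT DEN + PB, and these overlapped. In KO DEN it read 8.25, 8.49, 8.37 and 8.19, and in KO DEN + PB 8.74, 8.75, 9.17 and 8.66, which were apart. The difference was 0.27 ± 0.17 in WT (adjusted p = 0.839) and 0.51 ± 0.17 in KO (adjusted p = 0.163; exact permutation p = 0.0286), so Gstm3 passed in neither genotype. Without KO DEN + PB replicate 3, the highest array, the KO difference was 0.39.

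Promoters of 3 mu class genes are printed because Gstm2 was called with its probe, Gstm3 was not, and Gstm1 was called with one of its probes. All 3 lie on the minus strand of chromosome 3, at chr3:108017769-108018068 for the second annotated start of Gstm1, chr3:107986371-107986670 for Gstm2 and chr3:107969125-107969424 for Gstm3. Capitals mark AGGTCA, which in the 12 promoters was found only in this promoter of Gstm1, starting 5 bases before the start. The same Gstm1 window held TATAAA 30 bases and GCGTG 231 bases before the start, both left in lower case. None of the 4 motifs was found in the windows of Gstm2 and Gstm3, which says only that these letters are not in these 300 bases. The longest shared stretch was tgagaagaccacagca (16 bases) between Gstm1 and Gstm3 and atgcctatgacact (14 bases) between Gstm2 and Gstm3. Both stretches lie after the annotated start, beyond the first 250 bases of each window, so they are not upstream sequence.
Gstm1: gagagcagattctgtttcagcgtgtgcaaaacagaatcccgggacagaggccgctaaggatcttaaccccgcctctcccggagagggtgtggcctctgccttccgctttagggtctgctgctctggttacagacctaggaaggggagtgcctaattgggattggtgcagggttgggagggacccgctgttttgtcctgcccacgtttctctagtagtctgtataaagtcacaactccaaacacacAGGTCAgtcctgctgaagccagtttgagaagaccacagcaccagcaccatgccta
Gstm2: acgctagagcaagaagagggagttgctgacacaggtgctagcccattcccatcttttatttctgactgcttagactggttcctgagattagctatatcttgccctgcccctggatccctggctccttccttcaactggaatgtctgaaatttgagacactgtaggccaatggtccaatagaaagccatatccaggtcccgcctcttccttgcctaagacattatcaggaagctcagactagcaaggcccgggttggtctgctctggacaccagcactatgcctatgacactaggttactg
Gstm3: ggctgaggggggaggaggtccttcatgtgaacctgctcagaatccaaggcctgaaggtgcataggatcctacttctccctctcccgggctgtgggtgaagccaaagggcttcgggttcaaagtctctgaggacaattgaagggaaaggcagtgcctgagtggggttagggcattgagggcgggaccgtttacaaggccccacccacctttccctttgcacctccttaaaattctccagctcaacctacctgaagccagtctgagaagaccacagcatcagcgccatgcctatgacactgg

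Gstp1, the pi class gene known as a marker of preneoplastic foci in rat liver and more highly expressed in male than in female mouse liver, was not called with either probe. Its brightest probe read 8.74, 8.44, 8.85 and 8.32 in WT DEN, 8.16, 8.79, 8.39 and 8.64 in WT DEN + PB, 8.45, 8.85, 8.39 and 8.66 in KO DEN and 8.66, 8.46, 9.10 and 8.50 in KO DEN + PB. The groups overlapped throughout. The differences with PB were -0.09 ± 0.19 in WT (95% interval -0.49 to 0.31) and 0.09 ± 0.19 in KO (-0.30 to 0.49), with adjusted p = 0.99 and 0.939. The second probe gave -0.08 ± 0.18 and -0.10 ± 0.18.

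The theta class enzymes act on small halogenated molecules, and Gstt1 and Gstt3 lie close together on chromosome 10. Gstt3 read 5.16, 5.14, 5.13 and 5.07 in WT DEN and 6.22, 6.11, 6.34 and 6.57 in WT DEN + PB. It read 4.66, 5.19, 5.38 and 4.10 in KO DEN and 6.59, 6.33, 6.64 and 6.42 in KO DEN + PB. The groups were apart in both genotypes, and KO DEN (SD 0.57) was far more spread than WT DEN (SD 0.04). Gstt3 rose by 1.18 ± 0.22 in WT (2.27-fold, adjusted p = 0.0117) and by 1.66 ± 0.22 in KO (3.17-fold, adjusted p = 0.000412). Of the 16 arrays left out in turn, the WT call was lost without WT DEN + PB replicate 4 (1.10, adjusted p = 0.0546), and it was lost in 2 of the 8 other settings (adjusted p up to 0.931). Within slides the Gstt3 change was 0.95 to 1.46 in WT and 1.24 to 1.90 in KO.

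Under DEN alone, Gstt1 had the largest difference between genotypes of the 10 genes. It read 3.21, 2.65, 3.08 and 3.00 in WT DEN and 3.30, 3.13, 3.29 and 2.67 in WT DEN + PB, which overlapped. It read 2.50, 2.17, 2.41 and 2.57 in KO DEN and 3.06, 3.23, 2.88 and 3.31 in KO DEN + PB, so every KO DEN array was below every other array. With PB the difference was 0.11 ± 0.17 in WT (adjusted p = 0.98) and 0.71 ± 0.17 in KO (adjusted p = 0.0504; exact permutation p = 0.0286). The KO value was called with the slide as a block (0.79, adjusted p = 0.0425) and, with the change at 0.71, without WT DEN replicate 2 (adjusted p = 0.0432) or WT DEN + PB replicate 4 (adjusted p = 0.0271), which enter through the shared estimate of the spread. Within slides the KO change of Gstt1 was 0.39 to 1.14. The difference between genotypes is given below with the other genes.

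**Figure D3:**
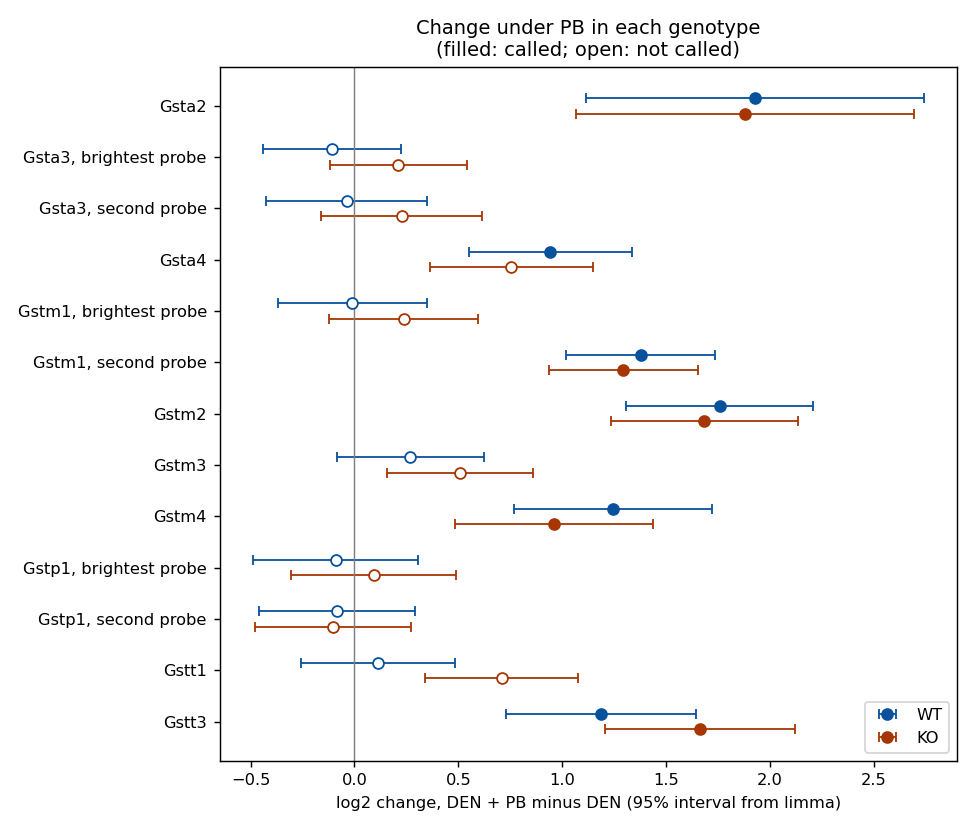
The log2 change under PB (x axis, DEN + PB minus DEN, with the 95% interval from limma over 4 against 4 arrays) is plotted for each of the 13 probes (y axis) in WT and KO, with filled points for called changes. The largest changes are those of Gsta2, at 1.93 in WT and 1.88 in KO, and the probes of Gsta3 and Gstp1 and the brightest probe of Gstm1 have intervals across 0 in both genotypes.

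Counted without a model on scaled levels, the PB arrays lay wholly above those without PB for 5 of the 10 genes in WT. In KO this was so for 6 of the 10 genes. Of all tested genes, 3.21% did so in WT and 4.59% in KO. In WT these were the 5 called genes, and in KO they were the 4 called genes with Gstm3 and Gstt1. Before scaling, the 5 genes stayed apart in WT, while Gsta2, Gstm3, Gstm4 and Gstt1 overlapped in KO. At the scaling used, the mean of the 4 arrays moved up for 7 of the 10 genes in WT and for all 10 in KO. The median change of all tested genes was -0.02 in WT and 0.01 in KO. With the deposited values unscaled between arrays, Gsta3, Gstm1 and Gstp1 changed by -0.084, -0.059 and -0.20 in KO. The median of all genes in KO was then -0.29. The WT and KO changes rest on separate arrays and separate controls.

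The second question was whether the genotype mattered. Under DEN alone, KO minus WT ran from -0.57 (Gstt1) to 0.07 over the 10 genes, with a median of -0.01. None of the 10 was called in limma, while 2.76% of all tested genes were called in either direction. At an unadjusted p under 0.05 there was 1 of 10, Gstt1, against 18.2% of all tested genes. The Gstt1 difference was -0.57 ± 0.17 (adjusted p = 0.0815), and its groups did not overlap (exact permutation p = 0.0286), which was so for 6.34% of all tested genes in that direction. Within the 2 slides that held both groups, the Gstt1 difference was -1.04 and -0.57.

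Under DEN + PB, KO minus WT ran from -0.27 (Gsta2) to 0.26 (Gstm3), with a median of 0.07. Again 0 of 10 genes were called, where 7.6% of all tested genes were, and 0 of 10 had an unadjusted p under 0.05, where 23.4% had. Gstt1 differed by 0.02 ± 0.17 here. The 95% intervals of this difference for the 10 brightest probes stayed within -1.08 and 0.64. With 1 array left out, the lowest of the 10 values ran from -0.45 to -0.27 and the highest from 0.15 to 0.35, and over the 8 other settings they ran from -0.61 to -0.02 and from -0.08 to 0.51.

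The interaction, the PB change in WT minus that in KO, was tested directly. It was called for 0 of the 10 genes and for 0% of all 13301 tested genes, and at an unadjusted p under 0.05 there was 1 of 10 genes (Gstt1) against 6.62% of all tested genes. It was -0.59 ± 0.25 for Gstt1 (adjusted p = 0.749), -0.48 ± 0.31 for Gstt3, 0.28 ± 0.32 for Gstm4, 0.19 ± 0.26 for Gsta4, 0.07 ± 0.30 for Gstm2 and 0.05 ± 0.54 for Gsta2. The 95% intervals were wide, from -0.56 to 0.71 for Gstm2 and from -1.10 to 1.20 for Gsta2. With 1 array left out, the interaction ran from -0.71 to -0.45 for Gstt1, from -0.66 to -0.23 for Gstt3 and from 0.12 to 0.48 for Gstm4. Over 7 other settings these were -0.75 to -0.20, -0.48 to -0.08 and 0.17 to 0.68. The call of Gsta4 in WT and not in KO is therefore not shown to be a difference between the genotypes. Its interaction was tested and not called (adjusted p = 0.99, limma).

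The genes did not all vary together. Over the 16 arrays, as a description with no test, Gsta2 and Gsta4 correlated at r = 0.96 and Gstm2 and Gstt3 at r = 0.93. With the group means taken out, Gsta2 and Gsta4 still correlated at r = 0.87, while Gsta2 and Gstm2, at 0.83 over all arrays, did so at 0.01. The bright Gstm1, Gstm3 and Gstp1 probes correlated within groups at 0.86 to 0.91, and they share the array scaling described above. Of all genes that are not members, the one most like Gsta2 over the 16 arrays was Gsta1 (r = 0.99), a near-identical alpha class gene whose probe may not be told apart from that of Gsta2 without its sequence. The most alike were Ugt2b35, a glucuronosyltransferase, for Gsta4 (r = 0.96), the cytochrome P450 genes Cyp2c29 for Gstm2 (0.97) and Cyp2c39 for Gstt3 (0.95), and Cyp2b10 for Gstm4 (0.94). These arrays share the split by PB.

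The wider glutathione system was then read from lists of genes. Of 18 other GST genes 13 were tested, and with PB only Gsta1, a hepatic alpha class enzyme, rose, by 1.48 ± 0.28 in WT (adjusted p = 0.016) and 1.52 ± 0.28 in KO (adjusted p = 0.00856). The Gsta1 call was lost in 5 of 8 other settings and 3 of 16 leave-outs of an array in WT, and in 2 and 0 of these in KO. The median of these 13 was 0.07 in WT and 0.24 in KO. Under DEN + PB the theta class gene Gstt2 was higher in KO than in WT by 0.81 (adjusted p = 0.0144), and Hpgds, the sigma class prostaglandin D synthase, was lower (-1.27, adjusted p = 0.0262). The Hpgds call was lost in 4 of 8 settings and 5 of 16 leave-outs, and the Gstt2 call in 2 and 0. For glutathione synthesis 5 genes of 6 were tested and 0 were called with PB in limma. At an unadjusted p under 0.05 there were 0 in WT and 1 in KO. Of all 24454 tested probes, 1782 in WT and 2958 in KO had such a p with PB. Cth, which makes cysteine from cystathionine, was higher in KO under DEN + PB by 0.67 (adjusted p = 0.0474), a call that was lost in 7 of 8 settings and 11 of 16 leave-outs.

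Of 11 genes of glutathione reduction and peroxidases, 0 were called with PB in WT. At an unadjusted p under 0.05 there were 3 of them in WT, against 1782 of all 24454 tested probes. In KO 1 was called, the endoplasmic reticulum peroxidase Gpx7 (0.94, adjusted p = 0.0156). The Gpx7 call was lost in 3 of 8 settings and 2 of 16 leave-outs. Glrx, a glutaredoxin that removes glutathione from proteins, was higher in KO than in WT by 0.80 under DEN (adjusted p = 0.0275) and by 1.02 under DEN + PB (adjusted p = 0.00292). The Glrx call was lost in 5 of 8 settings and 5 of 16 leave-outs under DEN, and in 2 and 0 under DEN + PB. Of 14 tested genes for export and breakdown of the conjugates, 2 rose with PB in both genotypes. Abcc4, an efflux pump of the sinusoidal membrane, rose by 3.49 ± 0.26 in WT (11.2-fold, adjusted p = 2.04e-06) and by 2.51 ± 0.26 in KO (5.70-fold, adjusted p = 4.61e-05). Abcc3, another sinusoidal efflux pump, rose by 0.63 in WT (adjusted p = 0.0459) and by 1.01 in KO (adjusted p = 0.000709). The Abcc3 call was lost in 6 of 8 settings and 15 of 16 leave-outs in WT, and in 2 and 0 in KO, while Abcc4 kept its PB calls in both genotypes in all of these. Abcc4 and the pump Abcc1 were lower in KO than in WT under DEN + PB (-0.90 and -0.73, adjusted p = 0.0481 and 0.022). Between genotypes the Abcc4 call was lost in 6 of 8 settings and 13 of 16 leave-outs, and the Abcc1 call in 2 and 3.

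The mRNAs of 7 sensors of foreign compounds, among them Nr1i3 (CAR), Nr1i2 (PXR), Ahr and Nfe2l2 (NRF2), gave 0 calls in limma in each of the 5 comparisons. In each comparison 1 to 3 of them had an unadjusted p under 0.05. Of all 24454 tested probes, 1474 (interaction) to 5622 (KO against WT under DEN + PB) had such a p. Nr1i3 differed with PB by -0.26 ± 0.16 in WT and 0.24 ± 0.16 in KO, and Ahr by 0.76 ± 0.21 (adjusted p = 0.164) and 0.80 ± 0.21 (adjusted p = 0.0645).

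**Figure D4:**
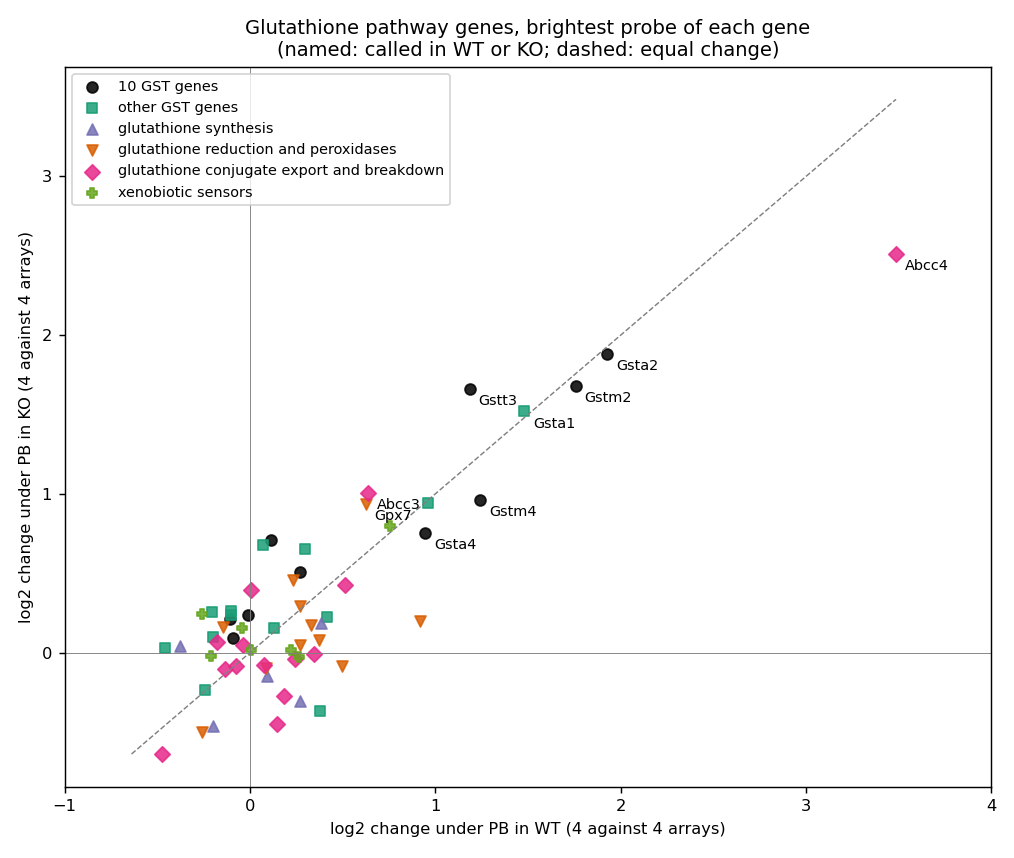
The log2 change under PB in WT (x axis) is plotted against that in KO (y axis) for the brightest probe of each tested gene of the GST family and of the glutathione lists, with a symbol per list, names for genes called in WT or KO, and a dashed line of equal change. The called GST genes lie between 0.94 and 1.93 in WT and between 0.75 and 1.88 in KO, Abcc4 lies apart at 3.49 and 2.51, and the sensors lie near 0 except Ahr.

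Markers of other cells moved with some of these groups. With PB in WT, 2 of 5 tested biliary markers rose (0.654% of all genes did), Krt7 by 1.16 and Krt19 by 1.27. The sums in this paragraph are the log2 of the summed unlogged levels of a list's genes, so the brightest genes weigh most. The biliary sum was 3.57 to 4.99 in WT DEN and 4.14 to 5.15 in WT DEN + PB. The Krt7 call was lost in 6 of 8 settings and 5 of 16 leave-outs. With PB in KO none of the 5 was called in limma (1 at an unadjusted p under 0.05), and the sum ran from 3.61 to 5.19 without PB and from 3.58 to 3.95 with it, and in each KO group 1 of the 6 listed biliary markers was above background on no array. Under DEN + PB, Krt7 (-1.06), Krt19 (-0.93) and Epcam (-1.20) were called lower in KO than in WT, 3 of 5 where 7.6% of all genes were called in either direction. Leukocyte and Kupffer cell markers ran lower in KO, with sums of 4.25 to 5.23 in WT DEN, 4.47 to 4.69 in WT DEN + PB, 3.57 to 3.91 in KO DEN and 3.05 to 3.66 in KO DEN + PB, and 6 of 7 were called lower in KO under DEN + PB. Endothelial markers were called lower in KO for 2 of 6 under each treatment, and stellate cell markers for 3 of 7 under DEN + PB, against 2.76% (DEN) and 7.6% (DEN + PB) of all genes in either direction. Hepatocyte markers gave 0 calls with PB in limma in either genotype, and their sum stayed between 9.72 and 10.26 in all groups. At an unadjusted p under 0.05 there were 3 of 6 hepatocyte markers in WT, all lower, and 0 in KO. Of all 24454 tested probes, 1782 in WT and 2958 in KO had such a p with PB. Tat, a hepatocyte marker, was called higher in KO than in WT under DEN + PB (0.67, adjusted p = 0.0418), a call lost in 7 of 8 settings and 8 of 16 leave-outs. Genes known to be more active in female liver summed to 8.79 to 9.20 in WT DEN and 9.12 to 9.63 in WT DEN + PB, and to 8.86 to 9.22 in KO DEN and 9.46 to 9.94 in KO DEN + PB, with Cyp2a4 (0.89) and Hao2 (2.61) called higher with PB in KO (2 of 6, where 1.26% of all genes were). Each of these calls was lost in 6 of 8 settings. Genes known to be more active in male liver gave 0 calls of 7 tested with PB in either genotype (limma). Their sums were 9.17 to 9.44 in WT DEN and 8.96 to 9.31 in WT DEN + PB. In KO DEN they were 9.17 to 9.48, and in KO DEN + PB 9.02 to 9.69. In KO against WT under DEN + PB, 3 of 6 periportal hepatocyte genes were called higher and 1 lower. Of 9 pericentral genes, 1 was called higher there. These calls were lost in 1 to 5 of 8 settings. The part of these markers in the GST values was not tested.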

How the data were processed

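RNA from 16 mouse livers had been labelled with Cy3 and hybridised to Agilent whole mouse genome arrays, 1 array per mouse. The deposited files hold, per the file headers, spot intensity from Agilent Feature Extraction 12.0.3.1, with the background-subtracted processed signal, medians and quality flags. The deposited series table holds the processed signal per probe on the linear scale, unscaled between arrays. It matches the mean processed signal of each probe's spots (largest difference 5e-04 percent). Spots marked as outliers (71 to 122 of 43379 per array) were left out and spots of a probe averaged. Values are log2 processed signal minus each array's log2 75th percentile. Probes were named through the array's RefSeq accession and the RefSeq gene table of GRCm38.p6 (28223 of 41174 probes, 68.5%); the array's own annotation is of another build, so gene coordinates are not given, and promoter coordinates are those of the RefSeq promoter table.

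A probe was tested if 1 or more groups had it well above background on each of their 4 arrays (24454 probes, 59.4%). Group means were fitted to all 16 arrays with limma 3.58.1 (R 4.3.3, lmFit and eBayes), with Benjamini-Hochberg adjustment over tested probes, and a call needed adjusted p under 0.05 and at least 1.5-fold. The study's methods used an ANOVA with the same adjustment and fold. Genes were represented by the probe with the highest mean level. Exact permutation tests were two-sided over 70 assignments. The number of arrays, 4 per group, limits the precision, and 16 arrays lay on 4 slides scanned on 1 day; KO DEN was absent from slide 2 and WT DEN from slide 4. Of genes outside the 10, the text names those of the glutathione lists called in at least 1 of 5 comparisons, at most 3 per list and comparison, the checks Cyp2b10 and Gadd45b, and the gene most alike each called member; sensor and marker genes named beyond this were chosen after their values were seen. The 10 genes and all lists were chosen with earlier results of these data known.

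Alternatives were quantile normalization, normexp (offset 50), the series table, no filter, slide or replicate number as a block, no moderation, only the 8 arrays compared, the second probe, and each array left out. The mean spot signal that normexp was planned on is not among the columns used here, so the median spot signal and the median local background were taken. An "at least" fold sets the brighter group's mean against, per array of the dimmer group, the higher of the probe's own signal and the dimmest signal still well above background. Scripts were tested on simulated data. Figures used matplotlib.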

Additional observations from a re-analysis of the deposited data

Results flagged for a closer look

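Among the 40 sets of 4 arrays (10 genes in 4 groups), 3 held an array far from the others by Dixon's gap test at the 95% level, where chance gives about 1 in 20. Gsta3 read 7.88 on KO DEN replicate 4, against 8.20 to 8.22 on the other KO DEN arrays. Gstm1 (brightest probe) read 9.34 on KO DEN + PB replicate 3, against 8.74 to 8.75 on the others. Gstm3 read 9.17 on the same array, against 8.66 to 8.75 on the others. KO DEN + PB replicate 3 had the lowest 75th percentile of the 16 arrays (137), and its part in these values was not tested.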

How the results depend on the processing

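The number of members called with PB in WT, 5, was 1 with normexp background correction, 2 with the unscaled series table, 3 without the filter on dim probes and 1 with the slide as a block. It ran from 2 to 5 with 1 array left out (2 without WT DEN + PB replicate 4; 3 without WT DEN replicate 2, 3 or 4 or WT DEN + PB replicate 3). In KO, 4 became 2 with normexp, the series table, no filter, no moderation or only the 8 arrays compared, and it ran from 2 to 5 with 1 array left out (2 without KO DEN replicate 4). The counts between genotypes and of the interaction were 0 in every setting run. Small values changed sign: Gstm1 with PB in WT was 0.12 with quantile normalization, 0.092 with the series table and 1.38 with its second probe; Gstp1 in WT was 0.026 and 0.012 with the first 2 of these; in KO, Gstp1 was -0.026 with quantile normalization, -0.20 with the series table and -0.10 with its second probe; with the series table Gsta3 was -0.084 and Gstm1 -0.059 in KO; and Gstt1 between genotypes under DEN + PB was -0.037 with quantile normalization and -0.31 with the series table. With 1 array left out, such values ran from -0.092 to 0.057 (Gstm1, WT), -0.19 to 0.020 (Gstp1, WT), -0.048 to 0.18 (Gstp1, KO) and -0.12 to 0.10 (Gstt1, KO against WT under DEN + PB), and the interactions of Gsta2, Gsta4 and Gstm2 from -0.31 to 0.41, -0.013 to 0.36 and -0.077 to 0.21. The cause was not tested; the series table moved the median of all genes to -0.29 with PB in KO, -0.31 between genotypes under DEN + PB and 0.35 for the interaction. No pairing of the mice by the replicate numbers of the labels was seen, which does not show that there was none. Deviations of the 24 same-numbered pairs correlated at -0.21 to 0.36, and those of the 72 differently numbered pairs at -0.49 to 0.54. Of the 16 arrays, 4 correlated best with their own number. With the replicate number as a block the members called were 5 in WT and 4 in KO, as without it.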
